A study of Homo sapiens with 4 samples.

Results

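The subunits of the Mediator complex were followed at the transcript level in HEK-293, a widely used cell line derived from human embryonic kidney, after siRNA treatment against ZSCAN5A or ZSCAN5B. Members were taken by symbol: every gene named MED followed by a number, with or without a closing L, together with CCNC, CDK8 and CDK19. This gave 33 genes of the 24934 gene rows, each on a single row. Of the 33, 13 were classed as large, with proteins of 600 to 2210 residues, and 20 as small, with proteins of 117 to 502 residues. All 33 reached 1 FPKM in at least 1 library, so none was lost to the filter on low values. FPKM counts the sequenced fragments of a gene per kilobase of its transcript relative to all fragments mapped in the library, and it is the scale of every level given here.

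The study asked which genes differ in expression when a ZSCAN5 zinc finger gene is knocked down. The 4 treatments were sequenced with 1 library each, and all cells received 10 nM of an siRNA for 48 h. The libraries si4 and si5 came from cells given 1 of 2 siRNAs against ZSCAN5A and were compared as a group, si1 came from cells given an siRNA against ZSCAN5B, and the control came from cells given a scrambled siRNA. ZSCAN5A stood at 0.730 FPKM in si4, 0.713 in si5, 2.53 in si1 and 2.42 in the control. ZSCAN5B was at 105% of the control in si1, at 0.0948 against 0.0903 FPKM, a level too low to check the label closely, and si1 is called here the library labelled ZSCAN5B knockdown, and any direction drawn from it rests on that label. Nothing in the labels places the libraries in separate cultures or batches. The same control library stands in both comparisons, and a property of that library cannot be told apart from an effect shared by the siRNAs.

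Mediator is the large complex that passes signals from DNA-bound activators to RNA polymerase II at promoters. Its head and middle modules contact the polymerase, its tail receives most activators, and MED14 is the backbone that holds the 3 together. A separable kinase module, built from cyclin C, CDK8 or CDK19, MED12 or MED12L and MED13 or MED13L, docks on the core and keeps the polymerase from binding it. The last 3 pairs are paralogs that take the same place in the module.

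The siRNA target sequences are shown because the seed of an siRNA can bind other transcripts. The capitals mark the stretch that pairs with bases 2 to 8 of the guide strand, which is bases 14 to 20 of the target strand.
si4: cgagaagaggtttACGTGTAa
si5: aagctagtcatccACAAGAGa
si1: acgtgtgcaataaATCATTTa
In GRCh37 the si4 target lay on the minus strand at chr19:56733332-56733352 and the si5 target at chr19:56733307-56733327, both in the coding sequence of exon 6 of ZSCAN5A. The si1 target lay on the minus strand at chr19:56701591-56701611, in the coding sequence of exon 5 of ZSCAN5B. A match to the si1 stretch was found in the annotated 3' UTR of 8 members, which is 24.2% of them, against 23.4% of 12012 expressed genes. These were CCNC, CDK19, MED12L, MED13, MED21, MED22, MED28 and MED4. The si4 stretch was found in 1 member, MED9, or 3.03% against 3.36% of genes. The si5 stretch was found in 3 members, MED13L, MED22 and MED28, or 9.09% against 11.9%. Members with an si1 match had a median log2 ratio of si1 to control of 0.05, and those without one had -0.0033. A match is only a description of the letters in 1 transcript model per gene.

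All modules were expressed in every library. The highest member in each of the 4 was CCNC, which encodes cyclin C, at 54.7 FPKM in the control, and the lowest in each was MED12L at 1.66 FPKM. In the control the median was 12.5 FPKM over 7 head subunits, 12.3 over 9 middle subunits, 21.2 over 9 tail subunits and 10.1 over 7 kinase module genes. MED14 alone stood at 34.7 FPKM. The median over all 33 was 14.2 FPKM in si4, 13.6 in si5, 13.4 in si1 and 14.5 in the control. With 1 library per siRNA, the spread between si4 and si5 is the nearest thing to an error, and it holds the difference between 2 siRNAs as well as that between cultures. Its median size over the members was 0.08 on the log2 scale, against 0.11 over all 12965 genes tested.

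**Figure D1:**
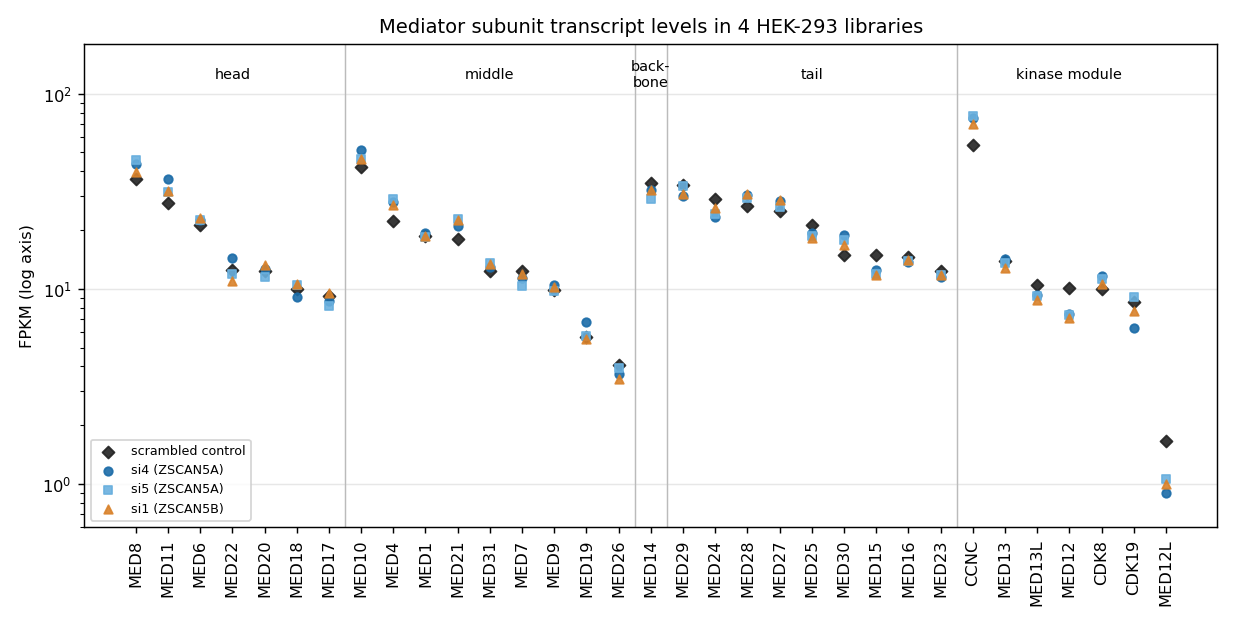
Level of each of the 33 Mediator transcripts in FPKM on a log axis, grouped by module and ordered by the control, with 1 point per library and no error bars, since each treatment has 1 library. CCNC is the highest and MED12L the lowest member in all 4 libraries.

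MED12L was the only Mediator gene past 1.5-fold. It encodes the less studied paralog of MED12, and in this table it spans chr3:150804676-151154465 on the plus strand of hg19. It stood at 0.899 FPKM in si4, 1.06 in si5, 0.999 in si1 and 1.66 in the control. All 3 siRNA libraries lay below the control, and they lay closer to one another than any did to it. The mean of si4 and si5 was 1.70-fold lower than the control (log2 ratio -0.76, with an SD of 0.17 between the 2 siRNAs), and si1 was 1.67-fold lower (log2 ratio -0.74). Past 1.5-fold in either direction were thus 1 of 33 members, or 3.03%, in each comparison. Of all genes tested, 3.79% passed the same limit for ZSCAN5A, 3.11% on the lower side, and 4.01% passed it in the library labelled ZSCAN5B knockdown, 3.17% on the lower side. The share of Mediator genes was thus close to that of genes in general.

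MED12L was low in FPKM, with an annotated transcript of 10794 bases. In rough fragments, estimated from the FPKM steps and an annotated transcript length, it had 569 in si4, 951 in si5, 588 in si1 and 965 in the control. MED19 had fewer in every library, at 435, 520, 331 and 336. The MED12L ratio to the control with its 95% counting interval was 0.540 (0.486 to 0.600) in si4, 0.638 (0.583 to 0.699) in si5 and 0.600 (0.540 to 0.665) in si1, which covers counting error only. Its transcript shares 451 exon bases with IGSF10 on the opposite strand, and although the labels and the methods, which name different kits, both describe stranded libraries, whether the authors counted by strand is not given in the sources used here. IGSF10 stood at 0.634, 0.659 and 0.756 FPKM in si4, si5 and si1 against 0.893 in the control, and its part in the MED12L values was not tested. With 1 FPKM added to each side, MED12L no longer passed 1.5-fold in either comparison, and limma on the log2(FPKM + 1) scale gave it an adjusted p of 0.385 for ZSCAN5A and 0.468 for ZSCAN5B.

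MED12 lay on the same side of the control. It encodes the subunit that activates CDK8 and CDK19, and it stood at 7.41 FPKM in si4, 7.38 in si5, 7.06 in si1 and 10.1 in the control. The si4 and si5 values nearly coincide, and all 3 siRNA libraries were clear of the control. The log2 ratio was -0.45 for ZSCAN5A, with an SD of 0.0044 between the siRNAs, and -0.52 in the library labelled ZSCAN5B knockdown. MED12 and MED12L together summed to 11.8 FPKM in the control and to 8.31, 8.44 and 8.06 in si4, si5 and si1. MED12L made up 14.1% of that sum in the control and 10.8%, 12.6% and 12.4% in the siRNA libraries.

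CCNC lay on the other side and had the highest ratio of all members. It stood at 74.8 FPKM in si4, 76.7 in si5, 69.9 in si1 and 54.7 in the control, so that every siRNA library was above the control. The ratio was 1.39-fold for ZSCAN5A (log2 ratio 0.47, SD 0.03 between the siRNAs) and 1.28-fold in the library labelled ZSCAN5B knockdown (0.35), both short of the limit. Against the summed level of MED12 and MED12L, the cyclin transcript stood at 4.64 in the control and at 9.01, 9.09 and 8.67 in si4, si5 and si1. Against CDK8 and CDK19 together the same ratio was 2.97 in the control and 4.16, 3.77 and 3.82 in the siRNA libraries. Transcripts of partners in the kinase module thus lay on both sides of the control.

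Of the 2 kinases of the module, CDK19 differed between the ZSCAN5A siRNAs and CDK8 did so little. CDK8 stood at 11.7 FPKM in si4, 11.2 in si5, 10.6 in si1 and 9.93 in the control, with the control lowest. CDK19 stood at 6.31 in si4, 9.12 in si5, 7.67 in si1 and 8.52 in the control. The si4 value lay below the control and the si5 value above it, a difference of -0.53 on the log2 scale that was the widest between si4 and si5 among the 33 members. In counting terms, the CDK19 ratio was 0.741 (0.701 to 0.782) in si4 and 1.07 (1.02 to 1.12) in si5. No match to the si4 stretch was found in the annotated CDK19 3' UTR. CDK19 made up 46.2% of the pair in the control and 35.1%, 44.8% and 41.9% in si4, si5 and si1. Their sum was 18.0, 20.4 and 18.3 FPKM in si4, si5 and si1 against 18.5 in the control.

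MED13 and MED13L link the kinase module to the core. MED13 stood at 14.2 FPKM in si4, 13.5 in si5, 12.8 in si1 and 13.8 in the control, and the control lay within the range of the others. MED13L stood at 9.33, 9.15 and 8.77 FPKM in si4, si5 and si1 against 10.5 in the control, which was the highest. MED13L was thus 1.13-fold lower for ZSCAN5A and 1.19-fold lower in the library labelled ZSCAN5B knockdown, and its share of the pair was 39.6%, 40.4% and 40.6% in the siRNA libraries against 43.1% in the control.

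**Figure D2:**
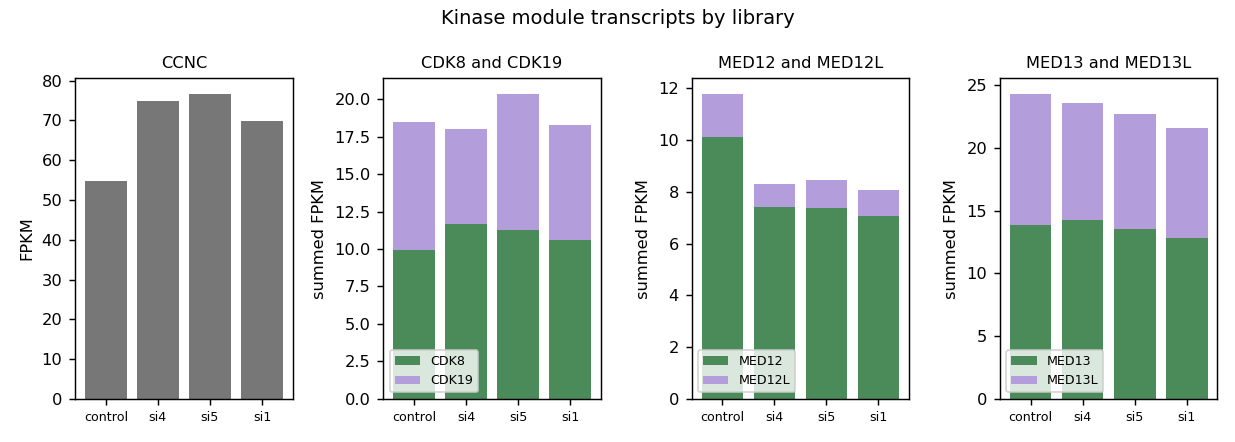
Levels of the kinase module transcripts in each library, with CCNC at the left and the 3 paralog pairs as stacked bars of summed FPKM from 0. CCNC is higher than the control in all 3 siRNA libraries, the MED12 pair is lower in all 3, and CDK19 is lowest in si4.

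Outside the kinase module, the lowest mean ratios over si4, si5 and si1 belonged to the tail. MED15, a tail subunit bound by activators of lipid genes, stood at 12.6 FPKM in si4, 11.9 in si5, 11.8 in si1 and 14.9 in the control. MED24, another large tail subunit, stood at 23.5, 24.3 and 25.8 FPKM against 28.8. The control was the highest library for both, with log2 ratios for ZSCAN5A of -0.29 and -0.27 and for ZSCAN5B of -0.33 and -0.16. MED25, the tail subunit that binds the activator VP16, was also highest in the control, at 21.2 FPKM against 19.3, 18.6 and 18.2 in si4, si5 and si1. Over the 9 tail genes, all 6 with a negative ratio in both comparisons had the control highest, and the other 3, MED27, MED28 and MED30, had it lowest.

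The highest ratios after CCNC belonged to small subunits of the middle, head and tail. MED4, of the middle module, stood at 27.9 FPKM in si4, 28.8 in si5, 26.8 in si1 and 22.2 in the control. MED21, which forms the hinge of the middle module with MED7, stood at 21.0, 22.8 and 22.4 FPKM against 18.0. In both the control was the lowest library, with log2 ratios of 0.36 and 0.28 for ZSCAN5A and 0.27 and 0.32 in the library labelled ZSCAN5B knockdown.

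MED11, of the head, stood at 36.5 FPKM in si4, 31.4 in si5, 31.8 in si1 and 27.5 in the control. MED30 stood at 18.9, 17.9 and 16.7 FPKM against 15.0. These 2 were again lowest in the control, although si4 stood apart from si5 and si1 for MED11. MED7, the partner of MED21 in the hinge, did not share its side: it stood at 11.4, 10.3 and 11.9 FPKM in si4, si5 and si1 against 12.3 in the control, the highest of the 4. MED11 and 2 other small genes share exon bases with a gene on the opposite strand: MED11 shares 75 with CXCL16, MED31 shares 1231 with TXNDC17 and MED28 shares 3520 with FAM184B. TXNDC17 was itself at 27.5, 26.5 and 27.2 FPKM against 20.5 in the control, and its part in the MED31 values was not tested.

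The backbone and the nuclear receptor subunit showed small ratios. MED14 stood at 31.9 FPKM in si4, 28.7 in si5, 32.1 in si1 and 34.7 in the control, with log2 ratios of -0.20 and -0.12. MED1, the subunit bound by nuclear receptors, stood at 19.4, 18.4 and 18.6 FPKM in si4, si5 and si1 against 18.6 in the control, with log2 ratios of 0.02 and -0.0033. For MED14 the control was the highest library, and for MED1 it lay among the others. In all, 24 of the 33 members were within 0.32 of the control on the log2 scale with each of the 3 siRNAs. Only MED12L, MED12 and CCNC were more than 0.32 from the control on the same side with all 3. Neither count was made over all genes, so they do not tell whether the members differ from genes in general.

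The remaining members stood nearer to the control or differed between siRNAs. MED8, of the head, stood at 43.6 FPKM in si4, 45.7 in si5, 39.9 in si1 and 36.7 in the control, and MED10, of the middle, at 51.4, 46.1 and 46.2 against 42.1. The control was the lowest library for both. It was also the lowest for MED6, MED27, MED28 and MED31, by 1.07 to 1.11-fold for ZSCAN5A.

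MED22, the partner of MED11 in the head, stood at 14.4 FPKM in si4, 11.9 in si5, 10.9 in si1 and 12.5 in the control. It thus lay above the control with si4 and below it with si5, with a difference of 0.27 on the log2 scale that was second only to that of CDK19. MED26, which recruits elongation factors, was the lowest member outside the kinase module, at 3.64, 3.91 and 3.45 FPKM in si4, si5 and si1 against 4.05 in the control. MED16 and MED23, large tail subunits, had the control highest but within 1.07-fold of every other library, with log2 ratios for ZSCAN5A of -0.07 and -0.09. For MED9, MED18 and MED20 the control lay among the siRNA libraries.

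**Figure D3:**
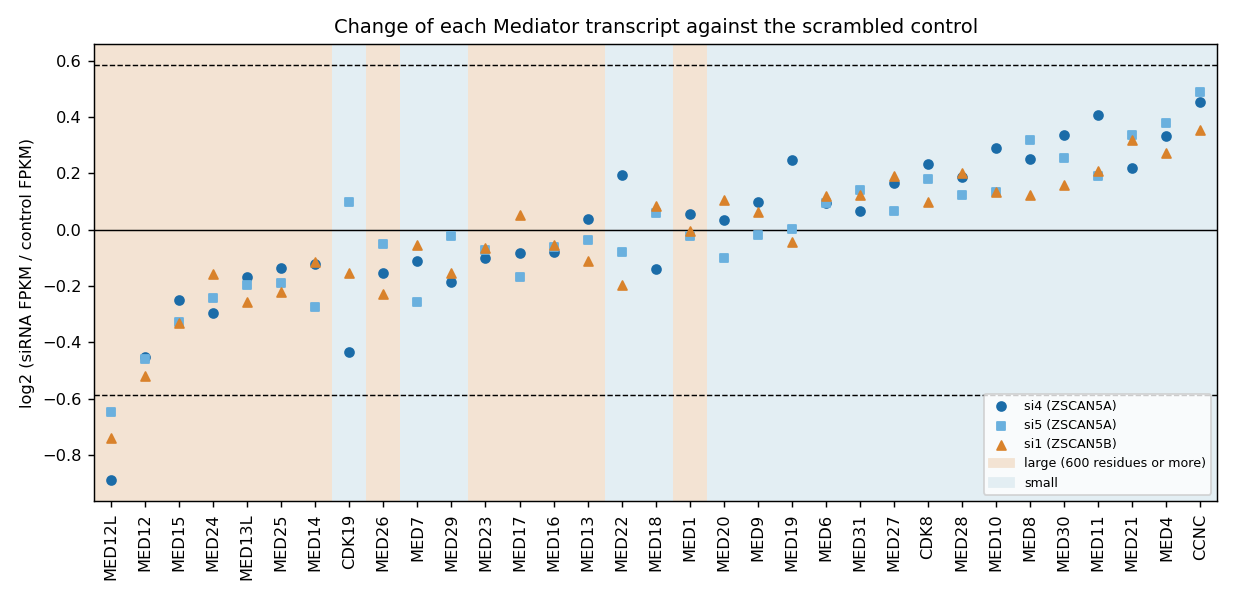
Log2 ratio of each siRNA library to the scrambled control for the 33 members, ordered by the mean of the 3, with dashed lines at 1.5-fold and shading for large and small subunits. Only MED12L lies beyond the lower dashed line, no member lies beyond the upper one, and the large subunits gather at the left.

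Large and small subunits lay on different sides of the control. The median log2 ratio for ZSCAN5A was -0.16 over the 13 large subunits and 0.12 over the 20 small ones, a difference of -0.286. In the library labelled ZSCAN5B knockdown the medians were -0.16 and 0.12 and the difference -0.278. The difference was -0.327 with si4 alone and -0.298 with si5 alone. Of the large subunits, 11 of 13 had a negative ratio for ZSCAN5A and 12 of 13 for si1, the library labelled ZSCAN5B knockdown. Among the small ones, 15 of 20 had a positive ratio in each comparison. Of all large genes tested, 2825 of 4244 had a negative ratio for ZSCAN5A and 2790 of 4242 for si1. Of all small genes tested, 4238 of 7796 had a positive ratio for ZSCAN5A and 4413 of 7766 for si1. No test was run over the subunits, which are not replicates of a condition.

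The same split appears in the place of the control among the 4 libraries. The control was the highest library for 10 of the 13 large subunits, or 76.9%, and the lowest for 0 of them. For the small subunits it was the lowest for 12 of 20, or 60%, and the highest for 2, MED7 and MED29. Over all 33 this makes 12 with the control highest, or 36.4%, against 36.2% of all genes expressed, and 12 with it lowest, also 36.4%, against 30.1%. Taken without regard to size, the counts were near those of genes in general on the higher side. Among all genes with a protein of 600 residues or more, the control was highest for 51.1% and lowest for 19.8%, and among those with a shorter one it was highest for 27.9% and lowest for 36.5%.

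**Figure D4:**
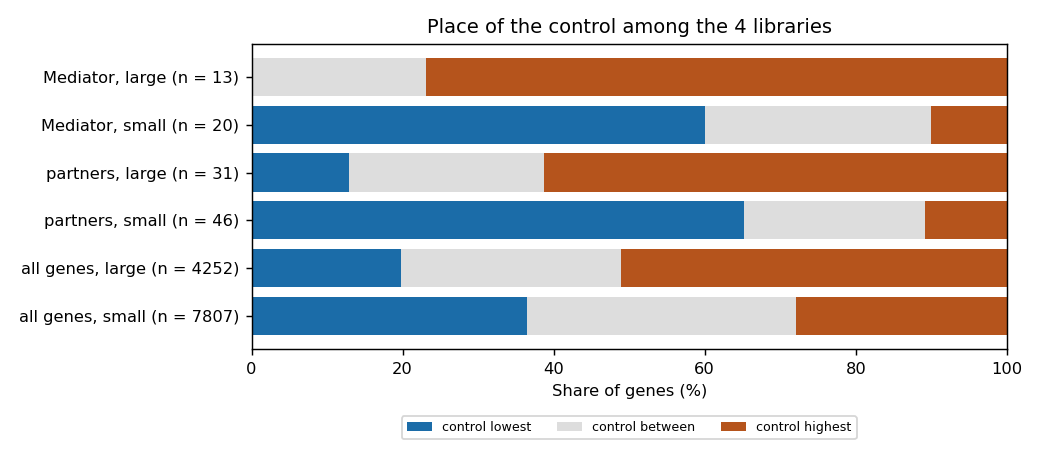
Share of genes, in percent, for which the control was the lowest, neither, or the highest of the 4 libraries, split at 600 residues, for Mediator, for the partner factors and for all expressed genes. The bar of the large Mediator subunits has no share with the control lowest, and all 3 lists have a larger share with the control highest among long proteins than among short ones.

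The relation with length was seen over the whole table. The median log2 ratio over all genes tested for ZSCAN5A went down in steps, from 0.15 for proteins under 150 residues to -0.19 for those of 1500 or more, and from 0.16 to -0.20 in the library labelled ZSCAN5B knockdown. Large minus small over all genes was -0.119 and -0.131 in the 2 comparisons. In Mediator, the Spearman correlation of protein length with the log2 ratio was -0.64 for ZSCAN5A and -0.66 for ZSCAN5B over 33 genes, and over 11983 genes it was -0.31 and -0.33. These correlations are across genes of the same libraries, which share a control and are not independent, and are given as a description.

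Setting each gene against the median of expressed genes with a similar transcript length, in 20 bins, brought the Mediator difference to -0.139 for ZSCAN5A and -0.134 for ZSCAN5B. Over all genes the same step left -0.034 and -0.036. By that measure 10 of 13 large subunits stayed below their length class for ZSCAN5A and 8 of 13 for ZSCAN5B, and 14 of 20 small ones stayed above it in each. The same count was not made over all large and small genes. The log2 ratio of MED12L became -0.63 and -0.58, the latter within 1.5-fold. Members above the median of all genes in their band of protein length were counted too. Under 150 residues they were 3 of 5 for ZSCAN5A and 2 of 5 for ZSCAN5B. From 150 residues they were 8 and 7 of 12, and from 300 they were 2 of 3 in both. From 600 residues they were 0 and 2 of 6, from 1000 they were 1 and 2 of 2, and from 1500 3 and 2 of 5. RNA quality has no measure in these files, and its part in the length trend was not tested.

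**Figure D5:**
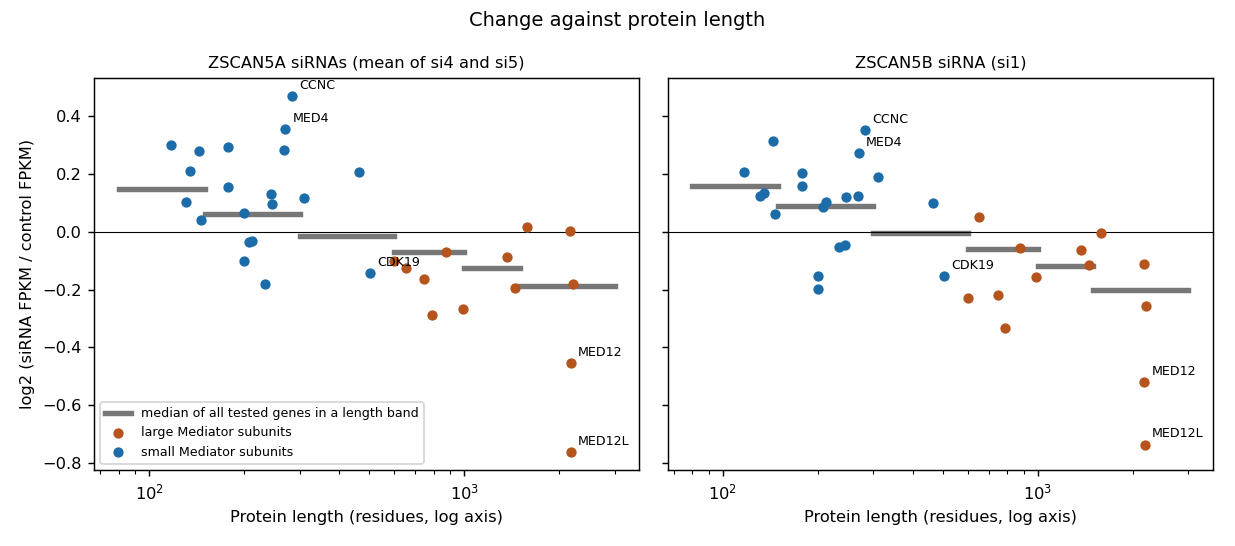
Log2 ratio of the Mediator transcripts (points) against protein length in residues on a log axis, for the mean of si4 and si5 at the left and si1 at the right, with grey bars for the median of all tested genes in each band of length. The bars go down from left to right in both panels, with MED12 and MED12L below the bar of the longest proteins and CCNC and MED4 above theirs. Of the 5 members in the band of the longest proteins, 3 lie above its bar at the left and 2 at the right.

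The depth behind these ratios was enough to set many members, and many genes in general, apart from the control library. For 32 members, which had from 331 to 19057 rough fragments in a library, the 95% counting interval of the ratio to the control lay above 1 with all 3 siRNAs for 9, each of them small: CCNC, CDK8, MED4, MED6, MED8, MED10, MED11, MED21 and MED30. It lay below 1 with all 3 for 7, each of them large: MED12, MED12L, MED13L, MED14, MED15, MED24 and MED25. MED28 was left out of this count because its annotated transcript of 10858 bases is longer than its locus of 9888 bases in the table. The length correction and the seed matches kept it, with that same transcript. Among all genes, the interval lay above 1 with all 3 siRNAs for 22.7% of small ones and 11.2% of large ones, and below 1 for 14.4% and 35.6%. The shares of small and large Mediator genes were 47.4% and 0% above and 0% and 53.8% below. These intervals say nothing of the spread between cultures, which 1 library per siRNA does not show.

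Promoter sequences were looked at for the 3 members that lay more than 0.32 (log2) from the control on the same side with all 3 siRNAs. The sequences are from RefSeq on GRCh38.p14, which differs from the build of the table, and run from 250 bases before to 50 after the gene start. Capitals mark a GC box (GGGCGG on either strand), the site of Sp1-type factors, or an ETS core (CCGGAAG on either strand). The MED12L promoter is chr3:151085414-151085713 on the plus strand, the MED12 promoter is chrX:71118346-71118645 on the plus strand, and the CCNC promoter, the first of 2 listed, is chr6:99568765-99569064 on the minus strand.
MED12L: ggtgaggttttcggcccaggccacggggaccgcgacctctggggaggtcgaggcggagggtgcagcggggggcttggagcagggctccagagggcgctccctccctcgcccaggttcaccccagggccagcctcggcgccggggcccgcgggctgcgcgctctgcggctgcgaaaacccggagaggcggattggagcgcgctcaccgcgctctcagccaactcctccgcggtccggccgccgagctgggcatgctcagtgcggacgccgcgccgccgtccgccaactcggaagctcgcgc
MED12: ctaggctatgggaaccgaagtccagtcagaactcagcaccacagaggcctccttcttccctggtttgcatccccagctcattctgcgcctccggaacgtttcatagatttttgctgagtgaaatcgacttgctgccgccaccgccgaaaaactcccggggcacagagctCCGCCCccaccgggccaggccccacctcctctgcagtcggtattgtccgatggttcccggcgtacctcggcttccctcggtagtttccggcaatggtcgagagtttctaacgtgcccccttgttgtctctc
CCNC: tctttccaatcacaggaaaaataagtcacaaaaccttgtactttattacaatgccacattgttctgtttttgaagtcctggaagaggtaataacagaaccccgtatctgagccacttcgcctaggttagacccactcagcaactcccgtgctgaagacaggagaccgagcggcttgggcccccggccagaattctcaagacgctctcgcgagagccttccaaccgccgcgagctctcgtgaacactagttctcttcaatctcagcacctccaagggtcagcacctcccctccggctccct
The MED12 window held 1 GC box, and neither motif was found in the MED12L and CCNC windows. MED12L had the most G and C, at 75.3%, against 59% for MED12 and 52.3% for the CCNC window shown, and the other CCNC window listed had 63%. A promoter was found for 25 of the 33 members. Of these, 60% held a GC box and 28.0% an ETS core, against 45.0% and 10.3% of all 35116 promoters in the table. The 2 sets are unlike: members were counted by their first promoter, and the 35116 hold every promoter of a gene, expressed or not. A GC box was in 63.6% of 11 large and 57.1% of 14 small members. The B box of RNA polymerase III genes, GTTCGANNC on either strand, was in 0 of the 25 and in 0.829% of all promoters. A TATA box, TATAAA on either strand, was in 8% of members and 11.5% of all promoters. No pair of these motifs overlaps in the windows shown.

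The factors Mediator works with were described by a list of 77 genes of RNA polymerase II, the general transcription factors, elongation factors and coactivators, all of them found. Past 1.5-fold were 5 for ZSCAN5A and 4 for ZSCAN5B, all lower than the control, and 0 higher. This is 6.49% and 5.19% of the list, against 3.79% and 4.01% of all genes, of which 404 were lower and 88 higher for ZSCAN5A and 409 lower and 109 higher for ZSCAN5B. POLR2A, the largest subunit of the polymerase, stood at 14.0 FPKM in si4, 14.9 in si5, 16.2 in si1 and 28.5 in the control. Its log2 ratios of -0.98 and -0.81 were larger than those of any Mediator gene. EP300 and CREBBP, the histone acetyltransferases that activators recruit beside Mediator, were also lower in both, at log2 ratios of -0.64 and -0.68 for EP300 and -0.63 and -0.61 for CREBBP. AFF1, of the super elongation complex, and TAF4, of TFIID, passed the limit for ZSCAN5A alone, at log2 ratios of -0.70 and -0.59. In the library labelled ZSCAN5B knockdown they were also lower than the control, at -0.512 and -0.509, short of the limit. Whether these 2 differed between the comparisons was not tested.

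The partners showed the size split too. Over 31 large partners the median log2 ratio was -0.10 for ZSCAN5A and over 46 small ones 0.14, a difference of -0.244, and in the library labelled ZSCAN5B knockdown the difference was -0.275. Mediator at -0.286 and -0.278 stood beside this list, and no test was made of the difference between them. Of the 12 polymerase genes, 10 had a positive ratio in each comparison. The other 2 were POLR2A, with 1967 residues, and POLR2D, with 142, while POLR2B, with 1174, was among the positive ones, so that size did not sort this group. Of 11 coactivators and loaders, 10 had a negative ratio for ZSCAN5A and 8 for ZSCAN5B, with medians of -0.27 and -0.21. All 11 were large, from CARM1 with 608 residues to NIPBL with 2804. Of all large genes tested, 2825 of 4244 had a negative ratio for ZSCAN5A and 2790 of 4242 for ZSCAN5B, with medians of -0.10 and -0.09. Whether the coactivators and loaders differ from large genes in general was not tested.

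The 4 libraries were of unequal depth. From whole-number steps between low values, found for 71.3% of 1745 genes within 0.1%, the depth relative to the control was 1.09 for si4, 1.54 for si5 and 1.02 for si1. The FPKM values summed to between 488036, in the control, and 546239, in si4. Scaling the libraries by the median ratio over expressed genes shifted log2 ratios by 0.01 to 0.03, and the counts of members with the control highest and lowest became 11 and 14.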

How the data were processed

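RNA from HEK-293 cells was sequenced in 4 mRNA libraries, 1 for each siRNA (si4 and si5 against ZSCAN5A, si1 against ZSCAN5B, and the scrambled control). Per the labels' processing notes, the authors used CASAVA 1.8.2, Trimmomatic 0.30, TopHat2 2.1.0 and Cufflinks 2.2.1 with hg19, and deposited 1 table of FPKM values. The counting options, and whether strand was used, are not given in the sources used here. The table has 0 other columns of per-sample values. Locus starts count from 0 in the table and are given here from 1.

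FPKM values were used as deposited. The mean of si4 and si5, or si1, was divided by the control without a pseudocount. A gene was tested if any library compared reached 1 FPKM and neither side was at 0, and called above 1.5-fold. There is no test between replicates, and this rule follows the methods of the study for ZSCAN5B. The study also used an adjusted p-value for ZSCAN5A, from its Cufflinks tools, which was not repeated here. An unlike test was run instead, limma 3.58.1 (R 4.3.3) on log2(FPKM + 1) over all genes. It used Benjamini-Hochberg adjustment and 1 residual degree of freedom, from si4 and si5, and need not call the same genes.

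Members were named in full if past 1.5-fold, among the 5 highest or 5 lowest mean log2 ratios, in a paralog pair, or CCNC, MED14 or MED1, and partners if POLR2A or past 1.5-fold, except 1 that is not reported here. The 3 members more than 0.32 (log2) from the control with all siRNAs, and others given beside these, were chosen after their values were seen. The members, the partner list and the module and size classes were chosen with earlier results of these data known. Size classes and modules were assigned by hand, and the size classes were checked against GENCODE release 44 on GRCh37, with 0 of 33 in disagreement. Of 23284 symbols, 92.0% matched that annotation, 1922 through an older symbol.

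Rough fragments come from FPKM, transcript length and the steps between low values. Exact counting intervals cover counting error only. Scripts were tested on simulated data and ran in Python 3.11.15 (SciPy 1.17.1, pandas 2.3.3, NumPy 2.4.6), and figures in matplotlib 3.10.9. Alternatives covered the expression limit, pseudocount, scaling, transcript length, fold limit, size limit, paralogs and single siRNAs.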

Additional observations from a re-analysis of the deposited data

Results flagged for a closer look

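For 2 members both ZSCAN5A siRNAs lay on one side of the control and the library labelled ZSCAN5B knockdown on the other. The share of all genes that did so was not counted. MED17, a scaffold of the head module, stood at 8.67 FPKM in si4, 8.17 in si5, 9.53 in si1 and 9.19 in the control, so that its log2 ratio for ZSCAN5A was lower than that for ZSCAN5B by a difference of -0.18. MED19, of the middle module, stood at 6.75 FPKM in si4, 5.71 in si5, 5.52 in si1 and 5.69 in the control, a difference of 0.18 in the other direction. In limma on log2(FPKM + 1), with si4 and si5 giving the spread, a test added after the values were seen, the difference between the comparisons had an unadjusted p of 0.181 for MED17 and 0.327 for MED19, and an adjusted p of 1 for both. The log2 ratio of si5 alone for MED19 was 0.0040.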

How the results depend on the processing

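MED12L stayed past 1.5-fold for ZSCAN5A in 7 alternatives that leave the fold limit at 1.5, among them no expression limit, both scalings and a pseudocount of 0.1 FPKM. The count of members past the limit was 1 in each comparison. It became 0 in both with at least 5 FPKM required, which leaves MED12L out, with a pseudocount of 1 FPKM, with a limit of 2-fold and with limma, and 0 after the length correction for ZSCAN5B alone. It became 4 in both with a limit of 0.32 on the log2 scale, at which all genes were not counted. At an unadjusted p under 0.05, limma called 5 members (15.2%) for ZSCAN5A and 3 (9.09%) for ZSCAN5B, beside 12.6% and 10.6% of all genes, with CCNC lowest at 0.00751 and MED12 lowest at 0.013, and of 13078 genes it called 10 after adjustment in each.

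Large minus small stayed negative in every alternative run. For ZSCAN5A it was -0.139 after the length correction, -0.261 with large set at 1000 residues or more, -0.337 with means and -0.256 without MED12L, MED13L and CDK19. With 1 of the 2 siRNAs left out it ranged from -0.327 to -0.298. For ZSCAN5B it was -0.237 at 5 FPKM or more, -0.134 after the length correction, -0.207 at 1000 residues, -0.309 with means and -0.238 without the 3 paralogs. The cause of the other moves was not tested.

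Single members kept the sign of their ratio under both scalings except 1 in each comparison, with main log2 ratios of 0.0025 (MED13) and -0.0033 (MED1). For ZSCAN5A, 6 turned with si5 alone and 1 with si4 alone, and 2 turned after the length correction, against 5 for ZSCAN5B. No paired analysis was possible because each treatment has 1 library and the siRNA numbers pair no libraries. One control library limits every ratio.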
